A study of Homo sapiens with 18 samples.

Results

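The genes described here are the protein-coding integrin subunits and laminin chains of the human genome, as measured by RNA-seq in glioblastoma cells with and without Erastin. The rule uses gene names and no measured value, and 38 of the 58302 genes in the count table met the rule, of which 12 encode laminin chains, 18 integrin α subunits and 8 integrin β subunits. The study examined enhancers, chromatin loops and gene expression of U87MG cells during ferroptosis, an iron-dependent form of cell death driven by lipid peroxidation. U87MG is an established human glioblastoma line, and Erastin is a small molecule that blocks the import of cystine by system Xc-. The RNA-seq data comprised 2 libraries of control U87MG cells, labelled WT, and 2 libraries of U87MG cells given Erastin (10 μM, 72 h), with the same medium and serum in both groups and no vehicle named in the labels. As a model it is 1 cell line in culture, without the vessels, immune cells and brain matrix of a tumour.

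Laminins are cross-shaped proteins of the basement membrane, each built from 1 α, 1 β and 1 γ chain. The α chain carries the main sites that cells bind. Integrins are heterodimers of 1 α and 1 β subunit that span the membrane and tie the matrix outside to actin inside. The α subunits differ in ligand: some bind laminin, some bind collagen, some bind the RGD motif of fibronectin and vitronectin, and some belong to leukocytes. In gliomas, integrins and laminins are known for their part in adhesion, invasion and the vessel wall.

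The 2 control libraries held 31513519 and 31259173 gene counts and those with Erastin 29412656 and 30925361, and TMM normalization factors lay between 0.971 and 1.02. Replicates differed by more than counting noise, with a chi-square per degree of freedom of 10.9 in control and 8.89 in Erastin libraries, and the biological coefficient of variation was 10.3%. Nothing in the labels says that replicates came from separate cultures, so the p-values measure the spread between these libraries, which may be technical. CDKN2A, CDKN2B and MTAP, which U87MG lacks, had 0 counts in every library. Of 4 mesenchymal markers, VIM (48117 to 77887 counts) and CD44 (31559 to 43669 counts) had many counts in every library and were lower under Erastin (log2 fold changes −0.60 and −0.36, edgeR adjusted p = 1.27e-05 and 0.000644), SPARC fell from 14751 and 15148 to 5047 and 5650 counts (log2 fold change −1.48, edgeR adjusted p = 8.81e-09) and S100A4 had 111 to 156 counts. Of 6 glial and neural stem markers, NES had 1277 and 972 counts in control and 105 and 77 in Erastin libraries (log2 fold change −3.62, edgeR adjusted p = 3.97e-08). GFAP had 46 and 41 counts in control and 69 and 81 in Erastin libraries (log2 fold change 0.79, edgeR adjusted p = 0.0696). OLIG2 had 59 to 88, SOX2 0 to 6, S100B 0 to 2 and AQP4 0 counts. NES, SPARC, VIM and CD44 fell, as did the members that were lower, whereas GFAP rose without passing the test. The part of these markers in the members' results was not tested. Some genes that every cell uses also had very few counts, including ACTN4 with 2, 2, 0 and 2 counts and ILK with 35 to 43. A low count of an integrin or laminin gene is therefore given here only as a count, and its cause was not tested.

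Expression was compared with edgeR's quasi-likelihood test over 16751 genes that passed the low-count filter, of which 30 were integrin or laminin genes. Genes with an adjusted p under 0.05 are called higher or lower in Erastin-treated cells, and those whose log2 fold change was in addition 1 or more in either direction are called upregulated or downregulated. Of the 30 genes, 22 were lower, 1 was higher and 7 did not pass the test. Downregulated genes numbered 11, which is 36.7% of the 30, and 9.34% of all tested genes were downregulated. No member was upregulated by edgeR or by DESeq2, and none reached a log2 fold change of 1 at an unadjusted p under 0.05 either, whereas 6.24% of all tested genes were upregulated. Lower genes made up 23.7% and higher genes 23.2% of all tested genes. The median log2 fold change was −0.88 over the 30 genes and −0.0026 over all tested genes. Both Erastin libraries lay below both control libraries for 24 of the 30 genes, against 36.9% of all tested genes, and above them for 3, against 36.7%. The tested members had long transcripts, with a median exon length of 7325.5 bases against 4251 bases for all tested genes. Among the 8109 tested genes with exons at least as long as the shortest tested member (4394 bases), 9.63% were downregulated, 5.07% upregulated, 28.8% lower and 27% higher, and the median log2 fold change was −0.0097. In bulk RNA, fewer cells that express a gene and less RNA per cell cannot be told apart.

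**Figure D1:**
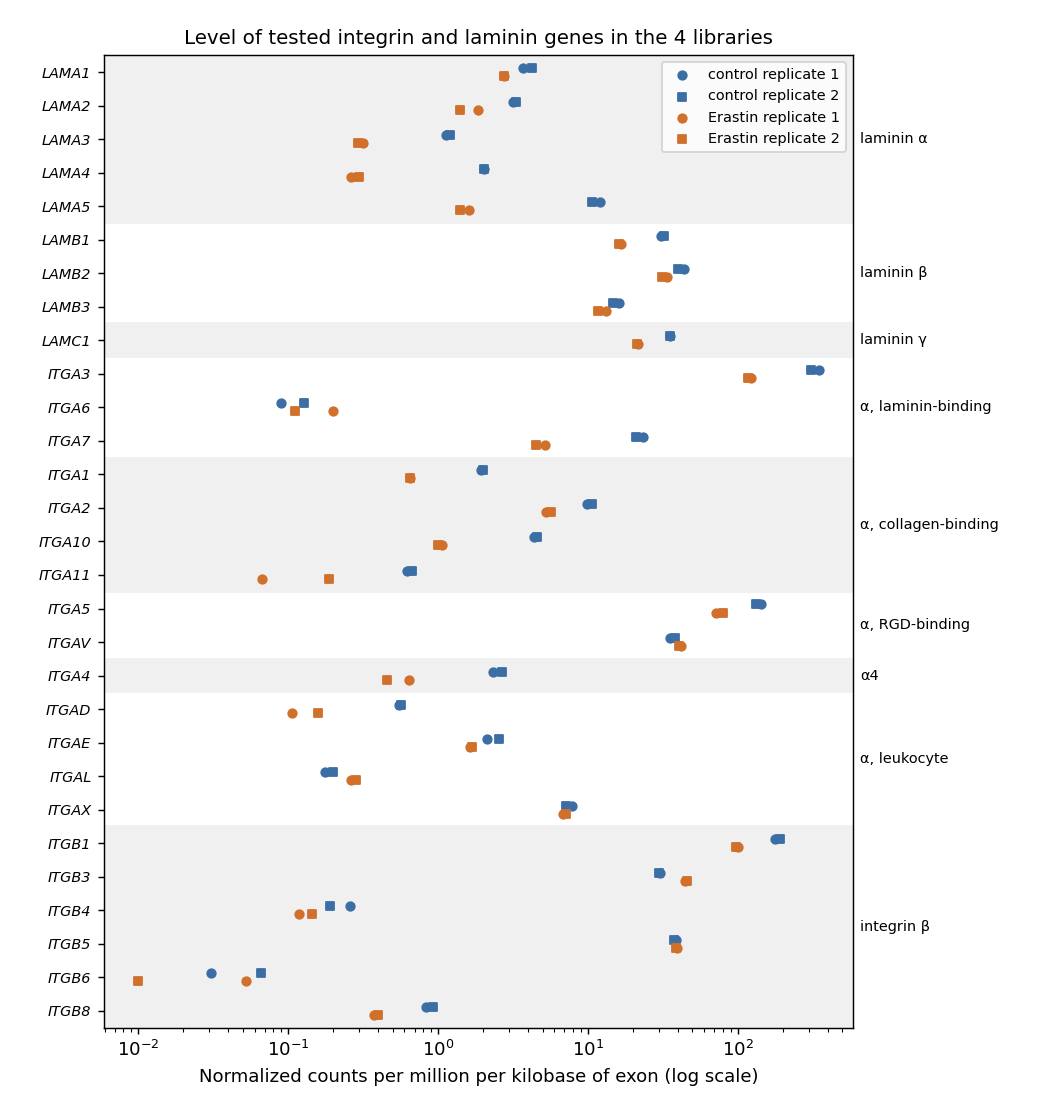
Per-length level of 29 of the 30 tested genes on a log scale (normalized CPM, the count scaled to a common library size, divided by the kilobases of exon), with 1 symbol per library (circle, replicate 1; square, replicate 2; blue, control; orange, Erastin), grouped by chain class. ITGA3 was the highest gene in both groups, and all 9 laminin genes drawn had both orange symbols to the left of both blue symbols. Over all tested genes, both Erastin libraries lay below both control libraries for 36.9%.

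**Figure D2:**
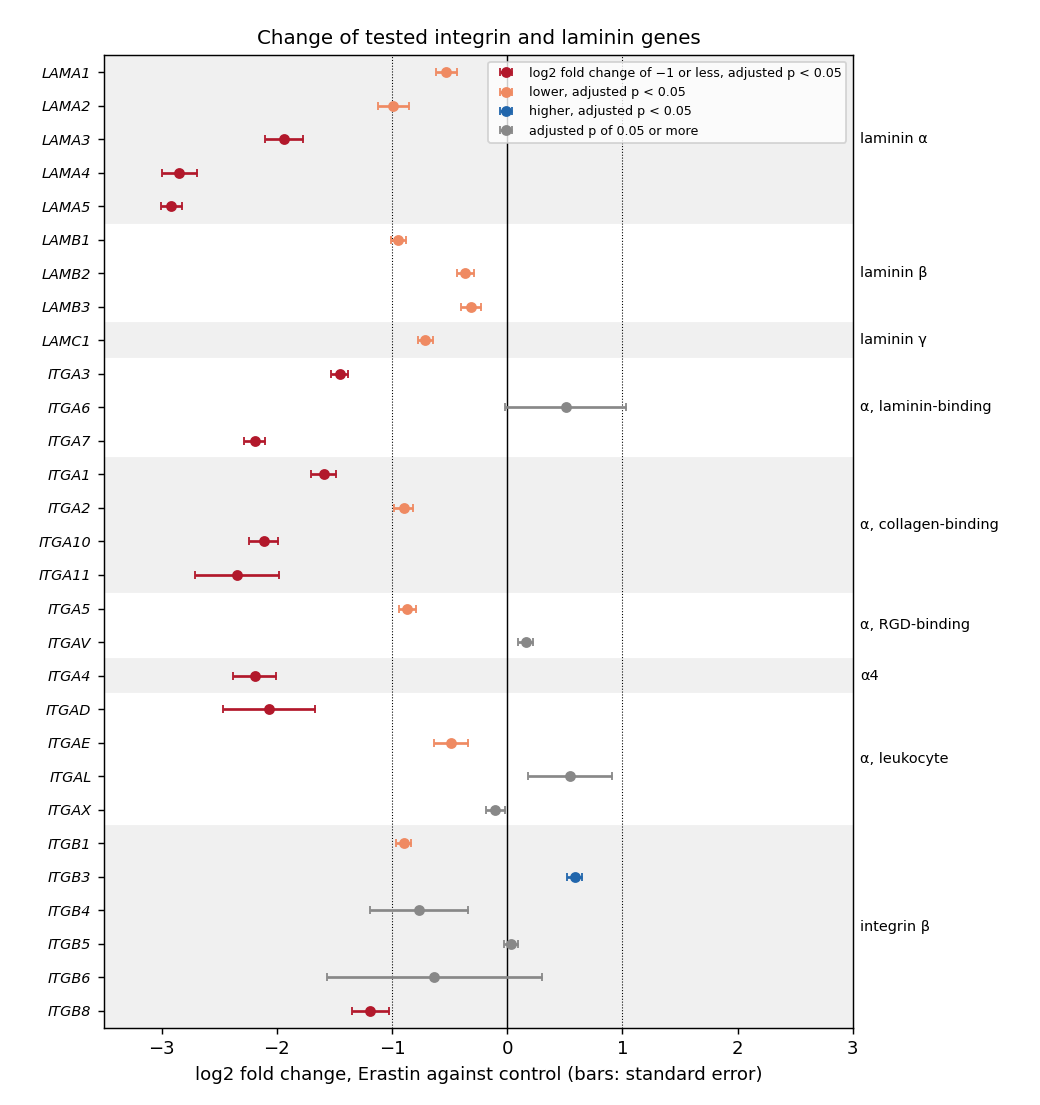
Log2 fold change of 29 of the 30 tested genes, Erastin against control, with bars of 1 standard error, from edgeR's quasi-likelihood fit of 2 against 2 libraries. Dotted lines mark a log2 fold change of 1 in either direction, dark red marks the 11 downregulated genes, light red the other lower genes, blue the higher gene ITGB3 and grey the 7 genes that did not pass the test.

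All 5 laminin α chains were lower in Erastin-treated U87MG cells, and 3 of them (LAMA3, LAMA4 and LAMA5) were downregulated. LAMA5 (ENSG00000130702, GRCh38 chromosome 20 from 62307955 to 62367312), the α chain of most adult basement membranes, had 5264 and 4763 counts in control libraries and 689 and 632 counts in Erastin libraries. Its level went from 163 ± 13.3 CPM to 21.6 ± 2.07 CPM (SD, n = 2 each), so 13.3% of the control level was left. This was the largest fall among the 30 genes, with a log2 fold change of −2.92 (standard error 0.0935, edgeR adjusted p = 8.25e-10). LAMA4 (ENSG00000112769, chromosome 6 from 112108760 to 112254939), an α chain known from vessel walls and other mesenchymal tissue, had 719 and 733 counts in control libraries and 92 and 109 in Erastin libraries. For LAMA4 the log2 fold change was −2.85 (standard error 0.151, edgeR adjusted p = 3.52e-08), and 13.9% of the control level was left. Of 4 endothelial markers, CDH5 and CLDN5 had at most 1 count in any library. PECAM1 had 138 and 188 counts in control and 31 and 33 in Erastin libraries (log2 fold change −2.34, edgeR adjusted p = 4.81e-05). VWF had 4 and 4 counts in control and 17 and 32 in Erastin libraries (log2 fold change 2.58, edgeR adjusted p = 0.0125). The summed level of the 4 markers was 4.64 and 6.18 CPM in control and 1.64 and 2.07 CPM in Erastin libraries, and their part in the LAMA4 result was not tested.

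LAMA3 (ENSG00000053747, chromosome 18 from 23689443 to 23955066), an α chain best known from the epidermal basement membrane, had 468 and 509 counts in control libraries and 129 and 124 counts in Erastin libraries. Its log2 fold change was −1.94 (standard error 0.163, edgeR adjusted p = 1.64e-06). Of 4 epithelial markers, CDH1, KRT5 and KRT14 had 0 counts in every library and EPCAM had 3, 13, 14 and 7 counts. LAMA2, the α chain of muscle and nerve basement membranes, had 976 and 1036 counts in control and 557 and 449 counts in Erastin libraries, with a log2 fold change of −0.99 (edgeR adjusted p = 7.92e-05). LAMA2 lay just short of the fold threshold and became downregulated when control replicate 1 or Erastin replicate 1 was left out. LAMA1, the α chain of the early embryo, fell least of the α chains, from 1804 and 2104 counts to 1313 and 1381 counts, with a log2 fold change of −0.53 (standard error 0.0889, edgeR adjusted p = 0.000429). For each of the 5 α chains both Erastin libraries lay below both control libraries, as they did for 36.9% of all tested genes.

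The sequences before the start sites of 4 downregulated genes are shown, chosen because their windows hold no GENCODE 44 exon. Windows of 250 bases before the RefSeq start were taken from the RefSeq promoter table (GRCh38.p14), which had an entry for 26 of the 38 members. Of the 8 downregulated members with a window, those printed are the 4 windows without a base of a GENCODE 44 exon. They are LAMA5 at chr20:62367313-62367562 (minus strand), LAMA3 at chr18:23872770-23873019 (plus strand), ITGA1 at chr5:52787666-52787915 (plus strand) and ITGA11 at chr15:68432164-68432413 (minus strand). The LAMA3 window lies inside the LAMA3 gene, before the start of a shorter transcript. In the annotation used for the counts ITGA1 starts at 52787896, so the last bases of its window lie within that gene model. Capitals mark matches of the searched motifs on either strand.
LAMA5: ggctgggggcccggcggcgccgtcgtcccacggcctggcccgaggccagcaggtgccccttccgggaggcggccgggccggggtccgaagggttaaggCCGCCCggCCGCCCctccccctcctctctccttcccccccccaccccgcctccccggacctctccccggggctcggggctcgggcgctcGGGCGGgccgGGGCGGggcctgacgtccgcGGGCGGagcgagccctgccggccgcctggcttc
LAMA3: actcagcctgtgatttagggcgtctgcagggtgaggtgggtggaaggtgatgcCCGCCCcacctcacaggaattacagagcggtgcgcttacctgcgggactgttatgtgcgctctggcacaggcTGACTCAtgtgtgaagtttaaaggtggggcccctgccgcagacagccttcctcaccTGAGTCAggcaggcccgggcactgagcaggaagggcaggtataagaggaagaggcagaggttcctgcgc
ITGA1: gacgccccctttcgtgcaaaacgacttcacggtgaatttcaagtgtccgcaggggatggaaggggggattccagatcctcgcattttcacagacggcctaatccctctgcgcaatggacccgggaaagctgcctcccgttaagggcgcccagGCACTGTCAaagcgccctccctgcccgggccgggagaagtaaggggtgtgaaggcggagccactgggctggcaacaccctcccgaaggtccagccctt
ITGA11: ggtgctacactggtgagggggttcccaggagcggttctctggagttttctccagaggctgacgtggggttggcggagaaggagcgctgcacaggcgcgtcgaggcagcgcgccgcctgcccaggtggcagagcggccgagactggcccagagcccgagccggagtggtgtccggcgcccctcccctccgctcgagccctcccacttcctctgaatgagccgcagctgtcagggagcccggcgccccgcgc
Both strands were searched for 6 motifs. The AP-1 motif was TGANTCA. The ATF4 composite site was TGATGNAA. For TEAD factors the letters were GGAATG. The GC box of SP factors was GGGCGG. For the TATA box TATAAA was used. The core of the antioxidant response element was TGACNNNGC. In the members' windows 0 matches overlapped a match of another motif. In LAMA5 the 5 capital runs are GC boxes, and 82.8% of its bases were G or C. In LAMA3 the first run is a GC box and the others are AP-1 matches that start 125 and 69 bases before the start of that shorter transcript. ITGA1 held 1 match, to the antioxidant core, and ITGA11 held none. Over the 8 downregulated members with a window, AP-1 matched 1, ATF4 0, TEAD 1, the GC box 3, TATA 0 and the antioxidant core 1. Among all 35116 promoter windows of the same length, AP-1 matched 6.57%, ATF4 3.14%, TEAD 11.9%, the GC box 42.6%, TATA 10.7% and the antioxidant core 10.9%. These matches describe letters in the reference sequence and were not tested as binding sites.

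LAMB1, LAMB2, LAMB3 and LAMC1 were lower as well, but none of these β and γ chains was downregulated. LAMB2 (ENSG00000172037, chromosome 3 from 49121114 to 49133118), a β chain of synapses and kidney filters, had the highest per-length level of all laminin genes. It had 9244 and 8517 counts in control libraries and 6956 and 6778 in Erastin libraries, with a log2 fold change of −0.36 (standard error 0.0729, edgeR adjusted p = 0.00152). LAMB1 (ENSG00000091136, chromosome 7 from 107923799 to 108003255), the widely expressed β chain, fell from 7730 and 8141 counts to 4088 and 4114 counts. Its log2 fold change was −0.94 (standard error 0.0664, edgeR adjusted p = 3.80e-07), and 52.0% of the control level was left. LAMB3, which joins LAMA3 in the laminin of skin, had a log2 fold change of −0.32 (edgeR adjusted p = 0.0106), and this call was lost without Erastin replicate 2 (log2 fold change −0.23, adjusted p = 0.121). LAMC1 (ENSG00000135862, chromosome 1 from 183023460 to 183145592), the γ chain of nearly all laminins, fell from 9110 and 9223 counts to 5486 and 5666 counts. The LAMC1 log2 fold change was −0.71 (standard error 0.0634, edgeR adjusted p = 2.75e-06). LAMB4 (0 to 13 counts per library) and LAMC3 (2 to 9 counts) did not pass the low-count filter.

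Of the laminin-binding integrin α subunits, ITGA3 and ITGA7 were downregulated and ITGA6 had few counts. ITGA3 (ENSG00000005884, chromosome 17 from 50055968 to 50090481), a receptor subunit for laminins that contain LAMA3 or LAMA5, had by far the most counts of any member, with 104389 and 94287 in control libraries and 35844 and 36301 in Erastin libraries. Its level went from 3225 ± 268 CPM to 1177 ± 30.4 CPM (SD, n = 2 each), and the log2 fold change was −1.45 (standard error 0.0718, edgeR adjusted p = 1.98e-08). ITGA7 (ENSG00000135424, chromosome 12 from 55684568 to 55716043), the main laminin receptor subunit of muscle, had 4533 and 4169 counts in control and 991 and 904 in Erastin libraries. With a log2 fold change of −2.19 (standard error 0.0901, edgeR adjusted p = 4.43e-09), 21.9% of its control level was left. ITGA6, a laminin receptor subunit known from glioma stem-like cells and epithelia, had 18 and 26 counts in control and 39 and 23 counts in Erastin libraries. The groups overlapped for ITGA6 (log2 fold change 0.51, standard error 0.525, edgeR adjusted p = 0.462), and a change was not detectable at this depth.

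All 4 collagen-binding α subunits were lower, and ITGA1, ITGA10 and ITGA11 were downregulated. ITGA10 (ENSG00000143127, chromosome 1 from 145891208 to 145910189), known from cartilage, had 849 and 906 counts in control libraries and 203 and 200 in Erastin libraries, with a log2 fold change of −2.11 (standard error 0.128, edgeR adjusted p = 1.09e-07). ITGA1 (ENSG00000213949, chromosome 5 from 52787896 to 52959210), a subunit that prefers basement membrane collagen, had 1101 and 1161 counts in control and 363 and 383 in Erastin libraries. The ITGA1 log2 fold change was −1.59 (standard error 0.110, edgeR adjusted p = 3.33e-07). ITGA11 (ENSG00000137809, chromosome 15 from 68296533 to 68432162), known from fibroblasts, had 208 and 229 counts in control and 22 and 64 in Erastin libraries. Its replicates under Erastin stood apart, so the log2 fold change of −2.34 (standard error 0.365, edgeR adjusted p = 0.000240) ranged from −3.26 to −1.80 when single libraries were left out. ITGA2 (ENSG00000164171), which prefers fibrillar collagen, had the highest per-length level of the 4 genes. Its 2388 and 2610 counts in control and 1246 and 1426 counts in Erastin libraries gave a log2 fold change of −0.90 (standard error 0.0827, edgeR adjusted p = 3.61e-06).

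The RGD-binding α subunits ITGA5 and ITGAV did not move alike. ITGA5 (ENSG00000161638, chromosome 12 from 54395261 to 54419460), the classic fibronectin receptor subunit, fell from 33363 and 31405 counts to 16373 and 19052 counts, with a log2 fold change of −0.87 (standard error 0.0721, edgeR adjusted p = 1.57e-06). ITGAV (ENSG00000138448, chromosome 2 from 186590065 to 186680901), the shared partner of several β subunits in vitronectin receptors, had 8931 and 9755 counts in control libraries and 10272 and 10482 in Erastin libraries. Both Erastin libraries lay above both controls for ITGAV, but its log2 fold change of 0.16 (standard error 0.0662) did not pass the test (edgeR adjusted p = 0.0677). It passed when library totals replaced TMM (log2 fold change 0.21, adjusted p = 0.0229) and without control replicate 2 (log2 fold change 0.20, adjusted p = 0.0141). ITGA4 (ENSG00000115232, chromosome 2 from 181457202 to 181536187), which binds VCAM1 and fibronectin, was downregulated. It had 564 and 663 counts in control and 153 and 113 in Erastin libraries, with a log2 fold change of −2.19 (standard error 0.185, edgeR adjusted p = 1.68e-06). A further 3 subunits did not pass the filter, namely ITGA8 with 0 counts in every library, ITGA9 with 0 to 8 and ITGA2B with 0 to 4. If counts were independent, a count of 0 would allow up to 3 counts, or 0.0955 to 0.100 CPM in these libraries, by counting error only. Mates were counted separately, so the limit is higher than this.

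Among the leukocyte integrin subunits, ITGAX had the highest per-length level and did not differ beyond the error. ITGAX (ENSG00000140678, chromosome 16 from 31355134 to 31382997), known from dendritic cells and macrophages, had 1695 and 1586 counts in control and 1447 and 1595 in Erastin libraries, and its log2 fold change was −0.10 (standard error 0.0844, edgeR adjusted p = 0.347). ITGB2, the only β subunit known to pair with it, had 1, 0, 0 and 0 counts. Of 10 leukocyte markers, 7 stayed under 10 counts in every library, and 3 of these 7, including CD3E, had 0 counts. CD53 had 6 to 20 counts and CD14 had 1 to 12. HCLS1 had 7 and 8 counts in control and 75 and 70 in Erastin libraries (log2 fold change 3.26, edgeR adjusted p = 0.000109). The summed level of the 10 markers was 0.785 and 0.708 CPM in control and 3.61 and 2.96 CPM in Erastin libraries. PTPRC, which all leukocytes carry, had at most 1 count. Of its 31-base words, 73.5% recur on alternate scaffolds, and the counting left out multi-mapping reads. Whether the reads were aligned with those scaffolds is not known here, so the value says little and its cause was not tested. ITGAD (ENSG00000156886, chromosome 16 from 31393312 to 31426505), known from macrophages, had 74 and 78 counts in control and 14 and 22 in Erastin libraries and was downregulated (log2 fold change −2.07, standard error 0.400, edgeR adjusted p = 0.00119). ITGAE (ENSG00000083457), known from T cells of the gut lining, had 431 and 533 counts in control and 328 and 355 in Erastin libraries. The ITGAE log2 fold change was −0.49 (standard error 0.146, edgeR adjusted p = 0.0160), and the call was lost without control replicate 2 (adjusted p = 0.108) and without Erastin replicate 1 (adjusted p = 0.0731). HASPIN, on the opposite strand within 6.41% of the ITGAE exon bases, had 232 and 224 counts in control and 60 and 67 in Erastin libraries. The counts ignore strand, and reads on exons of both genes were counted for neither. The part of HASPIN in the ITGAE result was not tested. ITGAL had 35 to 58 counts and did not pass the test (log2 fold change 0.54, edgeR adjusted p = 0.251). ITGAM, with 4, 0, 9 and 15 counts, did not pass the low-count filter but was upregulated when control replicate 1 was left out.

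The integrin β subunits split between a lower ITGB1, a higher ITGB3 and an ITGB5 that did not pass the test. ITGB1 (ENSG00000150093, chromosome 10 from 32900319 to 33005792), the common partner of the laminin-, collagen- and fibronectin-binding α subunits, had 32704 and 35753 counts in control and 18169 and 18353 in Erastin libraries. Its log2 fold change was −0.90 (standard error 0.0659, edgeR adjusted p = 5.38e-07), and 53.7% of the control level was left. ITGB3 (ENSG00000259207, chromosome 17 from 47253846 to 47311816), which pairs with ITGAV and, in platelets, with ITGA2B, had 4091 and 4094 counts in control libraries and 5888 and 6346 in Erastin libraries. It was the only member that rose past the test, from 133 ± 1.42 CPM to 199 ± 3.62 CPM (SD, n = 2 each), with a log2 fold change of 0.59 (standard error 0.0652, edgeR adjusted p = 1.70e-05). Of the ITGB3 exon bases, 51.6% are shared with another protein-coding gene model on the same strand (ENSG00000259753, 0 counts in every library). Reads on more than 1 gene were not counted, so the level of ITGB3 per length rests on the remaining bases and is a lower estimate.

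ITGB5 (ENSG00000082781), a vitronectin receptor subunit, had 7718 and 7535 counts in control and 7665 and 7855 in Erastin libraries, and the groups overlapped after normalization (log2 fold change 0.03, standard error 0.0643, edgeR adjusted p = 0.714). ITGB8 (ENSG00000105855, chromosome 7 from 20330702 to 20415754), which pairs with ITGAV to activate latent TGF-β, had 388 and 441 counts in control and 171 and 191 in Erastin libraries. It was downregulated (log2 fold change −1.19, standard error 0.161, edgeR adjusted p = 8.40e-05), but a glmTreat test against a log2 fold change of 1 did not keep it (adjusted p = 0.377). ITGB4, the partner of ITGA6 in hemidesmosomes, had 24 to 54 counts and did not pass the test (log2 fold change −0.77, edgeR adjusted p = 0.161). ITGB6, known from epithelia, had 2 to 13 counts and did not pass it either (edgeR adjusted p = 0.614). ITGB7, with 0 to 8 counts, did not pass the low-count filter, and 42.1% of its exon bases lie opposite exons of ZNF740.

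Levels were then set against each other within a class, as normalized CPM per kilobase of exon. The summed laminin α level went from 21.8 ± 0.381 to 6.50 ± 0.441 CPM per kilobase (SD, n = 2 each), so 29.8% of the control level was left. The summed β level kept 69.1% (89.2 to 61.6 CPM per kilobase) and the summed γ level 61.1% (36.3 to 22.2 CPM per kilobase). Within the α chains, LAMA5 made up 54.5% and 49.8% of the sum in control libraries and 23.7% and 22.8% in Erastin libraries. LAMA1 made up 16.8% and 19.8% in control and 40.6% and 44.8% in Erastin libraries. LAMA1 was thus the chain with the largest share under Erastin, although its own level was lower. The ratio of LAMA1 to LAMA5 was 0.309 and 0.398 in control and 1.72 and 1.97 in Erastin libraries, without overlap. LAMA2 took 14.8 ± 0.718% and 25.0 ± 2.98% (SD, n = 2 each), and LAMA4 9.33 ± 0.186% and 4.38 ± 0.667%. Among β chains the ratio of LAMB2 to LAMB1 was 1.42 and 1.24 in control and 2.02 and 1.95 in Erastin libraries. LAMC1 held 97.4% of the γ sum on average in both groups. The ratio of LAMA5 to LAMC1 was 0.340 and 0.304 in control and 0.0739 and 0.0656 in Erastin libraries.

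The summed integrin α level went from 557 ± 33.5 to 259 ± 1.62 CPM per kilobase, which left 46.5%, and the summed β level from 255 ± 8.17 to 184 ± 2.60 CPM per kilobase, which left 72.4% (SD, n = 2 each). ITGA3 remained the highest α subunit, with 59.9% and 58.0% of the α sum in control and 47.3% and 45.2% in Erastin libraries. ITGAV took 6.12% and 7.17% in control and 16.2% and 15.6% in Erastin libraries. The ratio of ITGAV to ITGA3 was 0.102 and 0.124 in control and 0.342 and 0.345 in Erastin libraries. ITGB1 made up 72.6 ± 1.43% of the β sum in control and 53.8 ± 0.730% in Erastin libraries (SD, n = 2 each), while ITGB3 made up 11.9% and 24.6% on average and ITGB5 15.1% and 21.3%. The ratio of ITGB3 to ITGB1 was 0.171 and 0.157 in control and 0.443 and 0.473 in Erastin libraries. Of the ITGB3 exon bases in the divisor, 51.6% are shared with another gene model, and reads there were not counted. The ITGB3 shares and this ratio are therefore lower estimates, and the order of ITGB3 and ITGB5 is not settled by them. The summed integrin β level includes ITGB3, so it is a lower estimate in both groups and the 72.4% left has this limit too. The ITGB1 and ITGB5 shares are upper estimates. Summed over the α subunits that pair with ITGB1, ITGAV left out, 41.0% of the control level was left (510 to 209 CPM per kilobase). Summed over the β subunits that pair with ITGAV, ITGB1 left out, the level under Erastin was 122% of control (69.5 to 85.1 CPM per kilobase). This last sum includes ITGB3 and has the same limit. Its rise lay mostly in ITGB3 (30.2 to 45.4 CPM per kilobase), while ITGB5 went from 38.4 to 39.3 CPM per kilobase. ITGB8 went from 0.887 to 0.389 and ITGB6 from 0.0483 to 0.0313 CPM per kilobase. These sums and shares are descriptions of RNA levels, since with 2 libraries in each group the smallest two-sided p of an exact permutation test is 0.33.

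**Figure D3:**
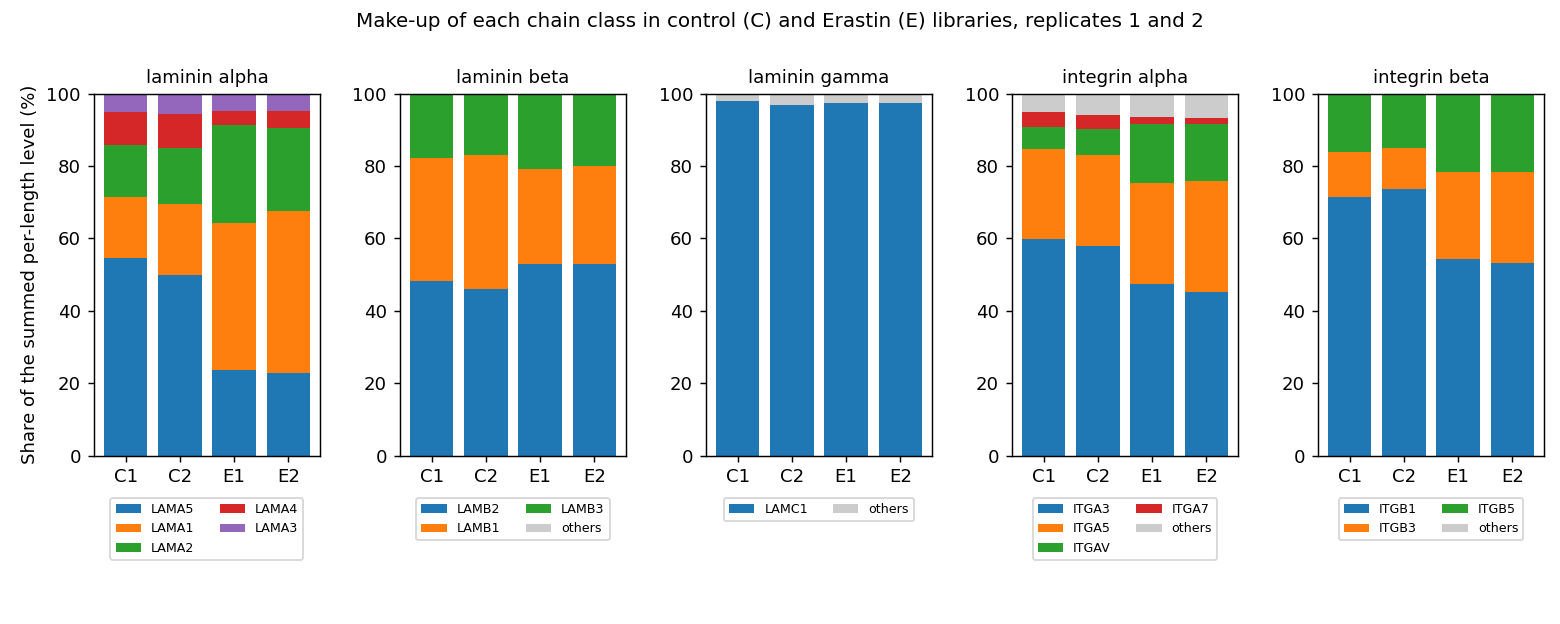
Share (%) of each gene in the summed per-length level of its class, in control (C) and Erastin (E) libraries, replicates 1 and 2; grey is all other genes of the class. LAMA5 fell from 52.2% to 23.2% of the laminin α sum on average while LAMA1 went from 18.3% to 42.7%, and ITGB3 went from 11.9% to 24.6% of the integrin β sum. The ITGB3 shares are lower estimates, because 51.6% of its exon bases are shared with another gene model and reads there were not counted. The shares of the other integrin β genes are upper estimates for the same reason.

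Genes that work with integrins and laminins were described as lists next to the members. For comparison, 23.7% of all tested genes were lower and 23.2% were higher. Of 20 other basement membrane genes that bind laminin or its network, 13 were tested, 7 were lower, 1 was higher and the median log2 fold change was −0.71. NID1 and NID2, which link laminin to the collagen network, were downregulated with log2 fold changes of −2.33 (edgeR adjusted p = 1.44e-06) and −1.31 (adjusted p = 4.41e-07). COL15A1, a collagen at the outer face of basement membranes, was downregulated as well (log2 fold change −1.61, edgeR adjusted p = 1.60e-05). Of 23 other integrin ligands, 16 were tested, 9 were lower, 1 was higher and the median was −0.61. Of the lower ligands 6 were downregulated, and the 1 higher ligand was upregulated. Among the ligands, FN1, which encodes fibronectin, fell from 151697 and 168464 counts to 14138 and 16332 counts (log2 fold change −3.39, edgeR adjusted p = 1.89e-10). LTBP1, which anchors latent TGF-β in the matrix, and TNC, a glycoprotein of glioma matrix, had log2 fold changes of −1.77 and −1.69 (edgeR adjusted p = 2.41e-09 and 1.93e-09).

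Of 15 non-integrin laminin receptors and their complexes, 12 were tested, 5 were lower and 1 was higher, with a median log2 fold change of −0.25. SGCD of the sarcoglycan complex (log2 fold change −1.81, edgeR adjusted p = 5.21e-06) and the heparan sulfate proteoglycan SDC1 (−1.07, adjusted p = 4.08e-07) were downregulated, and SDC2 was lower (−0.89, adjusted p = 4.00e-06). All 11 lateral partners of integrins in the membrane were tested, 6 were lower and 3 were higher, with a median of −0.29. The tetraspanins CD9 and TSPAN4 were downregulated (log2 fold changes −1.44 and −1.31, edgeR adjusted p = 2.27e-08 and 4.22e-07). SLC3A2, which binds β subunits and also forms system Xc- with its transporter chain, was upregulated, from 2827 and 2976 counts to 9049 and 8518 counts (log2 fold change 1.61, edgeR adjusted p = 1.20e-08).

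On the inner side of the membrane, the counts of higher and lower genes were closer to each other. Of 21 integrin activators and inhibitors, 19 were tested, 7 were higher and 6 were lower, none passed the fold threshold with edgeR, and the median log2 fold change was 0.08. FLNC, a filamin that binds β tails, rose by 0.98 on the log2 scale (edgeR adjusted p = 1.00e-06), FERMT3, the kindlin of blood cells, rose by 0.90 (adjusted p = 0.000170), and the tensin TNS2 fell by 0.98 (adjusted p = 1.59e-06). Of 35 focal adhesion scaffold and signalling genes, 31 were tested, 8 were higher and 10 were lower, and the median was −0.04. LPXN, a paxillin relative, was upregulated (log2 fold change 1.82, edgeR adjusted p = 2.42e-08). VCL, which encodes vinculin, was downregulated (log2 fold change −1.04, edgeR adjusted p = 1.00e-07). Counted once each, the 125 genes of these lists gave 102 tested genes, of which 43 were lower, 21 were higher, 16 were downregulated and 4 were upregulated. Over all tested genes the shares were 23.7% lower, 23.2% higher, 9.34% downregulated and 6.24% upregulated.

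**Figure D4:**
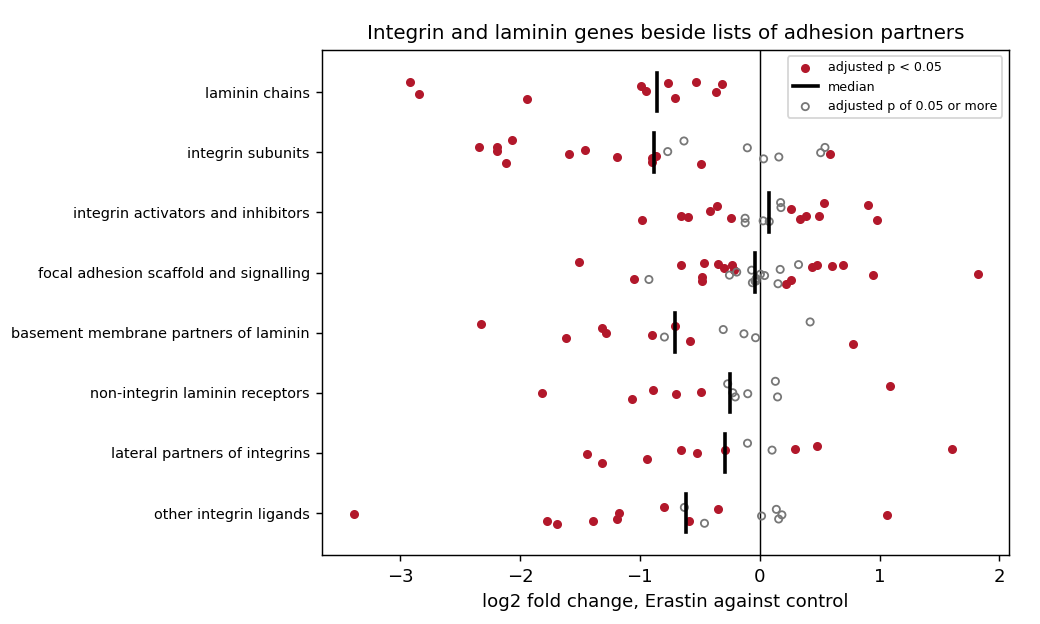
Log2 fold change, Erastin against control, of each tested gene of the laminin chains, the integrin subunits and 6 lists of genes that work with them; filled points passed an adjusted p of 0.05 in edgeR's test, open points did not, and black bars mark list medians. The medians were −0.85 for laminin chains, −0.88 for integrin subunits, −0.71 for basement membrane partners and 0.08 for integrin activators and inhibitors.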

How the data were processed

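The authors sequenced total RNA and counted reads per gene. Per the file headers, the deposited counts were written by featureCounts 2.0.3 using GRCh38 and Ensembl release 90, without strand, with mates counted separately and without reads on more than 1 place or gene. The submitters' processing notes name HISAT2 2.1.0, featureCounts 2.0.4 and DESeq2 1.18.1, and the methods name htseq-count. No normalization had been applied. The deposited values were checked for the decimals of estimated counts, and rounding changed 0 values in every library.

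Members were found by Ensembl identifier with the gene types and names of GENCODE release 44. The fit used edgeR 4.0.16 under R 4.3.3 (filterByExpr at a minimum count of 10, TMM, quasi-likelihood test, Benjamini-Hochberg adjustment over 16751 genes; two-sided). Standard errors were the log2 fold change divided by the root of F. Thresholds were a log2 fold change of 1 in size and an adjusted p under 0.05. The methods were tested on simulated data with the same dispersion for all genes and large changes placed only in genes with many counts. Small changes and genes with few counts were not covered by that test. Same-numbered libraries did not deviate together (correlation 0.0203), so replicate numbers were not used as a block. Alternatives were a DESeq2 1.42.0 fit, scaling by RLE or by library totals, testing all genes or those with 10 counts everywhere, a replicate block, glmTreat, protein-coding genes only, counts divided by 2, and each library left out.

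Full values are given for members past both thresholds and the 2 members of each class with the highest per-length level, and up to 3 genes per list, those with the largest change past an adjusted p of 0.05 at a mean of at least 5 CPM. Totals of 29412656 to 31513519 counts set the precision, and PCR reads are not independent molecules here, so limits cover counting error only. The members and lists were chosen with earlier results of these data known. Overlap with the 261 alternate scaffolds of GRCh38 was checked by 31-base words, and 9.61% of ITGAL, 5.46% of ITGB3 and at most 2.55% of any other member's words occurred there. Some genes that this rule would name, 1 of them a member, are not reported here, though they remain in the counts and medians. ChIP-seq, HiChIP and protein sequences were not analysed here.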

Additional observations from a re-analysis of the deposited data

How the results depend on the processing

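With 2 libraries per group, 347 of 358 alternative log2 fold changes of single members kept their direction and their side of an adjusted p of 0.05, 6 lost the call, 2 gained it and 3 changed sign. LAMA2 kept its side of that limit but crossed the fold threshold, at −0.99 as reported, −1.02 without control replicate 1 and −1.19 without Erastin replicate 1. The sign changes were in genes past no test, ITGB5 at −0.0040 and ITGB6 at 0.0015 without control replicate 2 and ITGB6 at 0.12 without Erastin replicate 2. When single libraries were left out, ITGB5 ranged from −0.0040 to 0.0587 and ITGB6 from −2.20 to 0.12. The number of upregulated members was 0 under every alternative except 1 (ITGAM) without control replicate 1, so 0 to 1 when single libraries were left out. The number of higher members was 1 to 2 when single libraries were left out (2 without control replicate 1, with ITGAM, and 2 without control replicate 2, with ITGAV), and 2 with library totals, with ITGAV. Library totals moved the median of all tested genes from −0.0026 to 0.047. Downregulated members numbered 11 as reported, 10 with glmTreat, which lost ITGB8, and 11 to 13 when single libraries were left out, with LAMA2 among those added. Lower members numbered 22, 21 with DESeq2 and 20 to 22 when single libraries were left out. A replicate block gave 0 upregulated, 11 downregulated, 1 higher and 22 lower members and changed no call, and the labels do not pair the libraries. Without division by length, LAMA1 made up 21.3% of the laminin α counts in control and 49.2% in Erastin libraries. The cause of these shifts was not tested. Over all genes, glmTreat, which tests against the fold threshold itself, called 377 genes upregulated and 748 downregulated, against 1046 and 1564 in the edgeR test reported. Members with under 20 counts per library limit what this depth can show.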
